A study of Junonia coenia with 24 samples.

Results

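The subject is a set of 4603 open chromatin intervals in the developing forewing of the buckeye butterfly Junonia coenia, out of 500558 intervals counted in that wing (0.920%). They were chosen by their forewing values. A member had a mean of at least 3 CPM in the 3 forewing libraries labelled 6 d, and that mean was at least 3 times the mean of each of the other forewing stages. CPM is the read count of an interval scaled to a library total of 1e6 counts. Of the 56595 forewing intervals that reached 3 CPM in the 6 d group, 8.13% were members.

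The study profiled whole wings by ATAC-seq, in which the transposase Tn5 inserts adapters into accessible DNA, so that more reads in an interval mean more open chromatin. Both wings of animals raised at about 27 °C were taken in 4 groups per wing, labelled 5th instar (the last larval stage), prepupa, pupa at 72 h and pupa at 6 d after pupation, and the last group is called day 7 in its titles. There were 8 groups of 3 libraries. No genetic change or treatment is given in the labels, and each library is a mixture of all cell types of a wing, so that an interval open in more cells and an interval more open per cell cannot be told apart.

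Butterfly wings grow inside the caterpillar as imaginal discs, which are patterned in the last larval instar and unfold at pupation. In the pupa the wing epithelium forms rows of scale cells, and pigment is laid down in the scales late in pupal life. Moults and metamorphosis are timed by pulses of the steroid hormone ecdysone, whose receptor EcR is named with the transcription factor spineless in the title of the study. Open intervals of this kind commonly mark promoters and enhancers. No gene annotation was used here, so members are given by contig and position, the labelled tissue and stages were not checked against marker genes, and no source used here names the genome build.

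The wings were counted in separate tables, each with its own list of intervals, with library totals of 7733254 to 22020858 counts for forewings and 6977525 to 14795457 for hindwings. Before any result, the hindwing stage labels need a remark. Over the members, the hindwing group that resembled the 6 d forewing was the one labelled 72 h, not the one labelled 6 d, as described below. The hindwing groups labelled 6 d and prepupa resembled the forewing prepupa and 72 h groups. Stage labels or table columns may have been exchanged in one of the wings, and the files and labels do not settle this. The labels are used as given throughout, so every hindwing value for the prepupa, 72 h or 6 d holds for the label and may not hold for the stage it names.

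The members had a median of 11.9 CPM in the forewing group labelled 6 d, where group means ran from 3.01 to 404 CPM with quartiles of 6.64 and 21.4 CPM. The medians in the other forewing groups were 1.87 CPM at the 5th instar, 2.22 CPM in the prepupa and 1.89 CPM at 72 h. These values follow from the rule and are given without a test. The 6 d mean was a median of 4.08 times the highest of the other means, with quartiles of 3.42 and 5.35 and a maximum of 36.7, leaving aside 2 members without a count in the 9 other libraries. The ratio was below 5 in 3220 members, between 5 and 10 in 1219 and at least 10 in 164.

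Few members were closed at every other stage. Another forewing group reached a mean of 3 CPM in 2024 members (44.0%), 5 CPM in 982 and 10 CPM in 325, while all 3 other means were below 1 CPM in 381 members and below 0.5 CPM in 38. The set is therefore described as intervals most open in the 6 d forewing rather than as intervals open there alone. The second most open forewing group was the prepupa in 2231 members (48.5%), the 5th instar in 1334 (29.0%) and 72 h in 1038 (22.6%).

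All 3 libraries labelled 6 d lay above all 9 other forewing libraries in 4204 members, a property that 3.92% of all forewing intervals had and that the rule favours. In 1294 members each 6 d library was at least 3 times each of the 9 others. The rule favours this too, and its share over all forewing intervals was not computed. The median coefficient of variation over the 3 libraries was 27.2%. In 63 members at least 1 of the 6 d libraries had no read.

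The size of the set depends on the scaling. With TMM factors, which rescale libraries so that most intervals keep their level, 7719 intervals met the rule, and these held all 4603 members. The factors were 0.805 to 0.876 for the 6 d forewing libraries and 1.27 to 1.32 for the prepupal ones. At the 3-fold limit, the members just inside were on contig 000091F at 59854 to 61345, with means of 207 CPM at 6 d and 69.0 CPM at 72 h, and on contig 000023F at 2455327 to 2455698, with 10.04 CPM at 6 d and 3.34 CPM in the prepupa. Just outside were 000098F at 1724667 to 1725195, with 31.9 CPM at 6 d and 10.7 CPM at the 5th instar, and 000041F at 1648915 to 1649396, with 13.2 CPM at 6 d and 4.41 CPM in the prepupa.

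Members were mostly narrow. Their median width was 338 bp, with quartiles of 270 and 440 bp and a range of 164 to 3336 bp, and 111 members were at least 1000 bp wide. The other forewing intervals that reached 3 CPM at 6 d had a median width of 524 bp. Per length, members held a median of 33.6 CPM per kb at 6 d, against 12.1 CPM per kb in those other intervals. The rule used the 6 d level, so this difference is a description of what was chosen.

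The most open member was on contig 000027F at 254169 to 255329. It had 451, 398 and 362 CPM in the 6 d forewing libraries, against 61.3, 94.5 and 82.1 CPM at the 5th instar, 35.8, 35.2 and 50.6 CPM in the prepupa and 46.4, 60.2 and 48.3 CPM at 72 h. The 6 d libraries did not overlap any other forewing library, and the interval was open at every stage. In the hindwing table the overlapping interval, 254158 to 255321, had 67.8, 106 and 85.7 CPM at the 5th instar, 56.6, 104 and 46.6 CPM in the prepupa, 441, 392 and 364 CPM at 72 h, and 41.7, 36.6 and 36.8 CPM at 6 d. There the group labelled 72 h stood clear of the rest and the one labelled 6 d was the lowest.

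The next 4 members by level were 000035F at 1425232 to 1427263, 000001F at 2122211 to 2124557, 000034F at 1626165 to 1626784 and 000197F at 453674 to 455203, with 6 d forewing means between 233 and 299 CPM. The interval on 000001F had 299, 267 and 306 CPM in the 6 d forewing, against 16.6, 18.3 and 23.5 CPM at the 5th instar, 26.3, 29.9 and 26.7 CPM in the prepupa and 25.3, 25.8 and 22.6 CPM at 72 h. Its hindwing counterpart, 2122186 to 2125053, had 22.8, 20.4 and 26.9 CPM at the 5th instar, 31.2, 22.7 and 32.6 CPM in the prepupa, 311, 285 and 324 CPM at 72 h and 35.2, 31.4 and 32.0 CPM at 6 d. In each wing 1 group of libraries stood about an order of magnitude above the others, under different stage labels.

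The steepest change among members of at least 10 CPM was on contig 000161F at 930534 to 931018, with 62.3 ± 6.07 CPM at 6 d (SD, n = 3) and 2.41 ± 0.417 CPM in the next group, 72 h, a ratio of 25.8. The 6 d libraries held 56.1, 62.5 and 68.2 CPM and the 9 others 0.821 to 2.77 CPM. Its hindwing interval had 58.6, 60.9 and 71.2 CPM at 72 h and 1.34, 0.998 and 2.70 CPM at 6 d. The other members named for their ratio were 000248F at 572823 to 573229, 000395F at 118196 to 119141, 000405F at 46009 to 46356 and 000038F at 125628 to 125992, with ratios of 20.6 to 22.3. The one on 000395F was also among the strongest, with 202 ± 16.7 CPM at 6 d in the forewing and 9.25 ± 2.25 CPM at the 5th instar.

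The widest member, 3336 bp on contig 000238F at 384496 to 387831, had 145, 106 and 114 CPM at 6 d and 9.97 to 26.6 CPM in the 9 other forewing libraries. It lies beside other members. The windows of 100 kb on 000238F from 300001 to 400000, 400001 to 500000 and 500001 to 600000 held 11, 12 and 12 members. The fullest windows of all, with 13 members each, were 000021F from 1500001 to 1600000, among 160 intervals, and 000025F from 900001 to 1000000, among 178 intervals.

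Members were otherwise spread over the assembly. They lay on 396 of 964 contigs and in 2261 of 6156 windows of 100 kb, of which 1153 held a single member and 160 held 5 or more. The contigs with the most members were 000009F with 75 of 5598 intervals (1.34%), 000004F with 71 of 7184 (0.988%) and 000021F with 69 of 4568 (1.51%). Of 4207 pairs of neighbouring members on a contig, 355 were less than 1 kb apart and 1234 less than 10 kb apart, and the median gap was 30361 bp.

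Intervals close to a member shared its stage more often. Among 102650 other forewing intervals with a group mean of at least 3 CPM, 21.6% were highest in the 6 d group. The share was 41.3% of the 2140 whose centre lay within 1 kb of a member's centre, 34.1% between 1 and 2 kb, 28.5% between 2 and 5 kb and 25.8% between 5 and 10 kb. It was 18.1% beyond 100 kb and 17.7% on contigs without a member. The gradient was not tested, and neighbouring intervals share their libraries.

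The share of a library's counts that fell in members shows the pattern in every library. In the forewing it was 1.47%, 1.45% and 1.42% at the 5th instar, 1.47%, 1.503% and 1.60% in the prepupa, 1.36%, 1.34% and 1.37% at 72 h and 9.02%, 8.56% and 8.30% at 6 d. In the overlapping hindwing intervals it was 1.59%, 1.57% and 1.57% at the 5th instar, 1.495%, 1.55% and 1.46% in the prepupa, 8.92%, 8.395% and 8.31% at 72 h and 1.56%, 1.62% and 1.60% at 6 d. The 3 hindwing libraries labelled 6 d lay close to those of the 5th instar and prepupa, and the 3 labelled 72 h stood where the forewing libraries labelled 6 d stood.

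**Figure D1:**
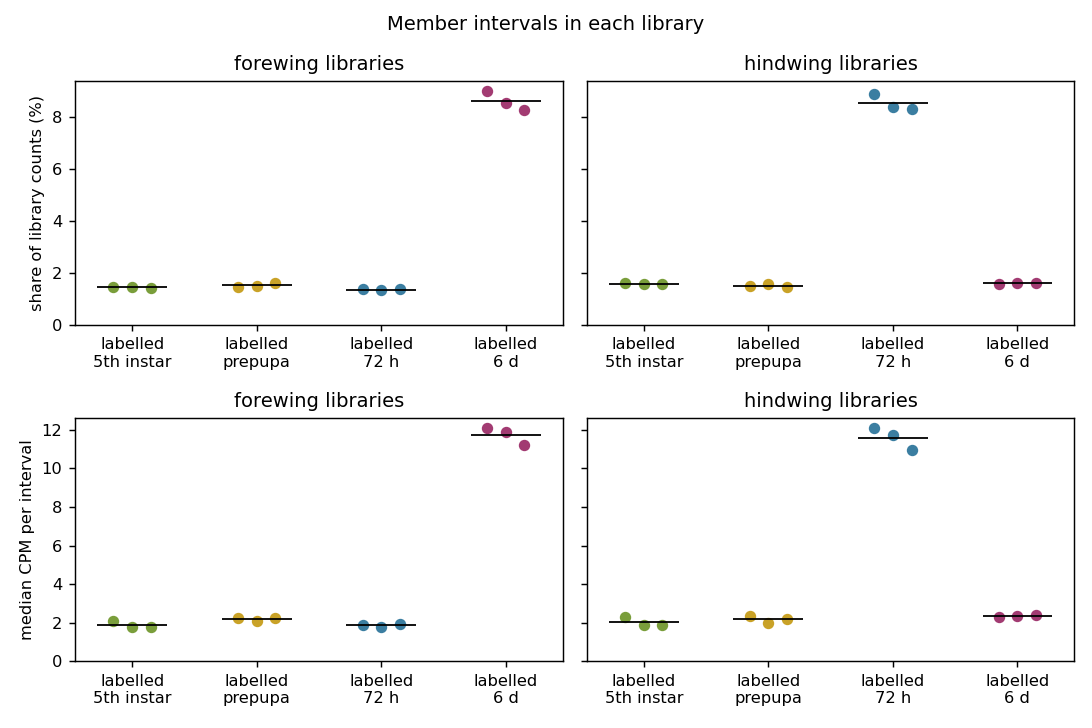
Share of each library's counts in member intervals (upper row, %) and median CPM per member interval (lower row) for forewing and hindwing libraries by labelled stage, with 1 point per library and a line at the mean of 3. The forewing libraries labelled 6 d hold 8.30% to 9.02% and the hindwing libraries labelled 72 h hold 8.31% to 8.92%, and all others lie between 1.34% and 1.62%.

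Every member overlapped a hindwing interval by at least 1 bp, and 4508 did so by at least 50% of both. Among all forewing intervals 78.2% had an overlap, but among the other intervals with 3 CPM at 6 d all except 1 of 51992 had one, so that a match in the other table was usual at this level. Where a member overlapped more than 1 hindwing interval (273 members), the one with the largest overlap was used, which gave 4594 distinct hindwing intervals.

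These hindwing intervals had median group means of 2.01 CPM at the 5th instar, 2.24 CPM in the prepupa, 11.6 CPM at 72 h and 2.33 CPM at 6 d. The group labelled 72 h was the highest in 4575 of them (99.6%), the 5th instar in 10, 6 d in 9 and the prepupa in 0. Among all 113325 hindwing intervals with a group mean of at least 3 CPM, 38.9% were highest at 6 d and 24.6% at 72 h. All 3 libraries labelled 72 h lay above all 9 others in 3917 of the member intervals, while 3.69% of all hindwing intervals had that property. All 3 labelled 6 d did so in 1, and the share of all hindwing intervals with that property was not computed.

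The rule that chose the members in the forewing, when applied to the hindwing table, selected 4864 intervals for the group labelled 72 h, which is 0.995% of that table. Of the 4594 member intervals 3352 (73.0%) were on that list, and they made up 68.9% of it. Only 1 was on the 5th instar list of 1394, and 0 were on the prepupal list of 599 or the 6 d list of 986. Of the 1242 member intervals outside the 72 h list, 150 fell short of 3 CPM at 72 h and 983 were at least 2 times as high there as in each other group. The share on the list was 63.1% for members with a forewing ratio below 5, 95.6% between 5 and 10 and 98.8% from 10 upwards.

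Differences between hindwing stages were tested with edgeR's quasi-likelihood test on the counts of the 12 hindwing libraries, with Benjamini-Hochberg adjustment over all 258640 tested hindwing intervals and a call at an adjusted p under 0.05. The forewing values that chose the members did not enter it. The hindwing libraries labelled 72 h were not independent of those values, however. Over the members, departures of the forewing libraries used for the choice recurred in the same-numbered 72 h hindwing libraries (r of 0.847 to 0.911, described below). Calls between 72 h and the other hindwing labels are therefore not independent of how the members were chosen. The 4552 member intervals that passed the count filter were those counted below.

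The hindwing at 72 h was more open at nearly all members than at the earlier labels. Against the prepupa, 4470 member intervals (98.2%) were higher and 0 were lower at 72 h, with a median log2 change of 2.88, where 12.9% and 7.78% of all tested intervals were called higher and lower. DESeq2 also called 0 lower, and 4528 had an unadjusted p under 0.05 in either direction. Against the 5th instar, 4387 (96.4%) were higher and 4 were lower at 72 h, with a median log2 change of 2.70, against 8.69% and 5.0% of all tested intervals.

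At 6 d the hindwing was less open at the same intervals. Of the 4552, 4517 (99.2%) were lower and 1 was higher at 6 d than at 72 h, with a median log2 change of -2.94 for the members and 0.01 for all tested intervals. The shares over all tested intervals were 20.9% lower and 14.0% higher. Without TMM factors the median of all intervals was 0.63 and that of the members -2.33, with 4384 members lower and 3 higher. Over all tested intervals 34060 were then lower and 79759 higher. Leaving out the factors shifts every interval of a contrast by about the same amount. A nearly unchanged difference between the members and all intervals therefore had to follow and is no separate check.

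Relative to the 5th instar and the prepupa, few members were called at hindwing 6 d. Against the prepupa, 94 (2.07%) were higher and 242 (5.32%) lower at 6 d, with a median log2 change of -0.09, near the 1.86% and 6.59% of all tested intervals. Against the 5th instar, 175 (3.84%) were higher and 740 (16.3%) lower, with a median of -0.24, where 7.74% and 14.5% of all tested intervals were called. These small counts moved with the scaling. Without TMM factors they were 177 higher and 212 lower against the prepupa, and 537 higher and 489 lower against the 5th instar, so that the balance of directions against the 5th instar turned over. The same change of scaling turned over that balance for all tested intervals, with 46012 higher and 27622 lower without TMM factors and 20025 higher and 37625 lower with them. Against the prepupa 7079 of all tested intervals were higher and 14818 lower without TMM factors, and 4809 higher and 17038 lower with them.

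They also moved with single libraries. The 94 intervals higher than in the prepupa became 42 without prepupa replicate 1, 54 without prepupa replicate 3, and 33, 26 and 51 without 6 d replicates 1, 2 and 3. Over all tested intervals, 4809 became 1934, 3418, 1546, 1744 and 2434 in the same fits. The 242 lower member intervals became 140 without prepupa replicate 2 and 125, 125 and 156 without 6 d replicates 1, 2 and 3. In these fits the 17038 lower over all tested intervals became 10525, 10085, 10325 and 12620. The 175 intervals higher than at the 5th instar became 111, 79 and 88 without 5th instar replicates 1, 2 and 3 and 94, 88 and 112 without 6 d replicates 1, 2 and 3.

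**Figure D2:**
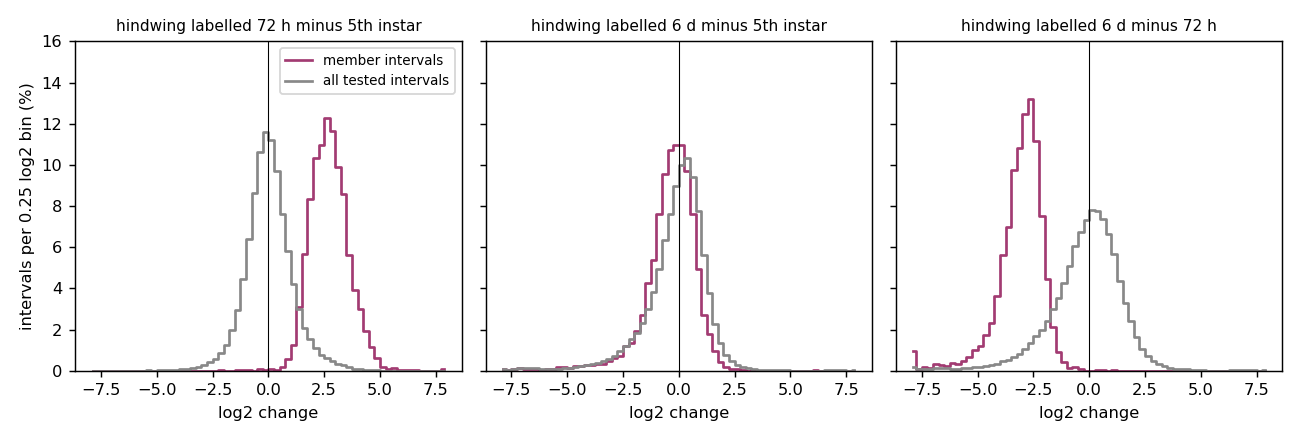
Distribution of log2 changes between hindwing groups for the 4552 tested member intervals (purple) and for all 258640 tested hindwing intervals (grey), as the percentage of intervals per bin of 0.25. Members sit at a median of 2.70 for 72 h minus 5th instar and of -2.94 for 6 d minus 72 h, and overlap all intervals for 6 d minus 5th instar, and changes beyond the axis are counted in the outermost bins.

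The largest falls at the hindwing label 6 d, by the rule for named intervals, were at members with no hindwing read there. The interval on contig 000184F at 196812 to 197259 had 14.0, 10.8 and 28.3 CPM in the 6 d forewing, and its hindwing counterpart had 2.29, 5.08 and 5.57 CPM at the 5th instar, 1.82, 1.92 and 1.22 CPM in the prepupa, 15.2, 12.6 and 27.7 CPM at 72 h and 0 reads in all 3 libraries at 6 d. Against a floor of 3 counts over the 6 d hindwing group (0.124 CPM), this was at least 149.6-fold lower at 6 d than at 72 h (adjusted p = 9.74e-08). The forewing libraries with almost no reads at this interval were the prepupal ones, with 2 reads in all.

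Similar values were seen on contig 000072F at 524844 to 525232, with 19.7, 18.4 and 17.5 CPM in the 6 d forewing, and 19.3, 20.5 and 14.9 CPM at 72 h against 0 reads at 6 d in the hindwing, at least 148-fold lower at 6 d. By the same rule, with at least 5 CPM at the 5th instar, this interval had the largest called fall of 6 d against that label, where the hindwing had 4.16, 5.40 and 7.90 CPM, at least 47.1-fold lower at 6 d (adjusted p = 3.26e-06). The forewing prepupa held 0.206, 0.302 and 0.251 CPM there. The third was on contig 000074F at 1681947 to 1682296, at least 101-fold lower at 6 d than at 72 h. In all, 41 member intervals had no read in the 3 hindwing libraries labelled 6 d.

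Among called intervals with at least 5 CPM at 6 d and no overlap of libraries, the largest rise of hindwing 6 d against both the 5th instar and the prepupa was on contig 000346F at 181217 to 181624. In the forewing it had 33.8, 16.2 and 13.2 CPM at 6 d, 5.66, 7.36 and 7.65 CPM in the prepupa and 0 to 1.19 CPM in the other 6 libraries. In the hindwing it had 6.09, 3.77 and 6.25 CPM at 6 d against 0, 0.424 and 0.668 CPM at the 5th instar, a log2 change of 3.32 ± 0.63 (SE; adjusted p = 6.98e-04). The hindwing 72 h libraries were again the highest, with 32.6, 15.03 and 11.4 CPM. Among called intervals with at least 5 CPM in the prepupa and no overlap of libraries, the largest fall of 6 d against the prepupa was on contig 000011F at 3491347 to 3491642, with 0.122, 0.222 and 0.142 CPM at 6 d and 3.38, 8.53 and 3.21 CPM in the prepupa, a log2 change of -5.03 ± 0.62 (SE; adjusted p = 7.87e-05). In the forewing the low group at this interval was the prepupa, at 1.34, 0.302 and 0.125 CPM.

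The stage patterns of the lower groups also paired across the wings under different labels. Over the 4603 members, the Pearson correlation of log2 group means was 0.974 between forewing 6 d and hindwing 72 h, against 0.782 between forewing 6 d and hindwing 6 d. For the forewing prepupa it was highest with hindwing 6 d (0.937, against 0.804 with the hindwing prepupa). For forewing 72 h it was highest with the hindwing prepupa (0.864, against 0.826 with hindwing 72 h), and for the forewing 5th instar with the hindwing 5th instar (0.915). These are descriptions across intervals that share their libraries and depth, and no p is given.

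The second most open forewing group carried over in the same way. The 2231 members with the prepupa second had medians of 1.82 CPM at the 5th instar, 2.22 CPM in the prepupa, 12.2 CPM at 72 h and 2.81 CPM at 6 d in the hindwing, so that 6 d was second there. The 1334 members with the 5th instar second had hindwing medians of 2.84 CPM at the 5th instar, 2.37 CPM in the prepupa and 2.03 CPM at 6 d. Of the 1038 members with 72 h second, the hindwing prepupa was second with 2.10 CPM, above 1.81 CPM at the 5th instar and 1.69 CPM at 6 d.

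Levels matched closely interval by interval. Forewing 6 d and hindwing 72 h means were within 2-fold of each other in 4564 of the 4603 members, with a median log2 difference (hindwing minus forewing) of -0.03. The corresponding median difference between hindwing 6 d and forewing 6 d was -2.30.

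**Figure D3:**
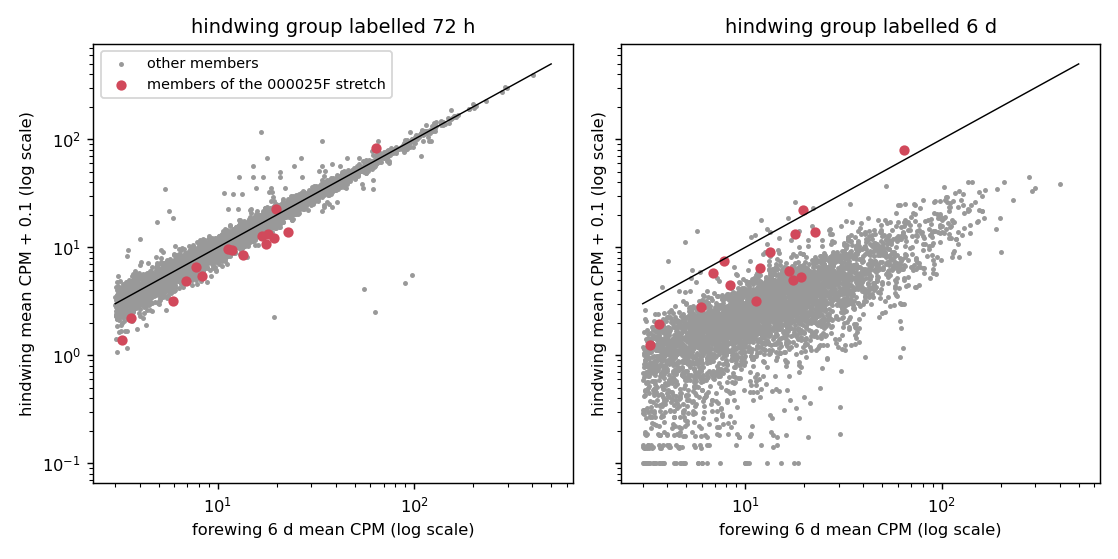
Mean CPM of each member in the forewing group labelled 6 d (x axis, log scale) against the mean of its hindwing interval plus 0.1 (y axis, log scale) in the groups labelled 72 h (left) and 6 d (right), with a line of equality. Members follow the line on the left and lie below it on the right, apart from a few, and the 16 members of a stretch on contig 000025F are drawn in red.

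The replicate libraries of the 6 d forewing did not agree at every member, and their disagreements recurred in the hindwing. In 459 members the highest 6 d library was at least 4 times the lowest (CPM + 0.5), with replicate 1 highest in 260, replicate 2 in 77 and replicate 3 in 122. In the hindwing group labelled 72 h the library with the same replicate number was the highest in 425 of these 459 (92.6%) and the library with the same number as the lowest one was the lowest in 428 (93.2%). In the hindwing group labelled 6 d the same number was highest in 161 (35.1%), in the prepupa in 151 (32.9%) and at the 5th instar in 166 (36.2%). The hindwing spread reached 4-fold at 338 of the 459 at 72 h, and at 27, 9 and 6 of them at the 5th instar, in the prepupa and at 6 d. This comparison was chosen after values were seen, and the rule used the mean of the 3 libraries and not their spread.

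Individual intervals show what this looks like. The widest spreads among members of at least 10 CPM were on contig 000249F at 35691 to 35995, with 0, 5.36 and 24.9 CPM in the 6 d forewing replicates 1, 2 and 3, and 0.188, 4.89 and 21.9 CPM in the hindwing 72 h replicates. On contig 000298F at 284854 to 285246 the values were 23.99, 19.6 and 0 CPM in the 6 d forewing and 23.8, 18.3 and 0 CPM in the 72 h hindwing. On contig 000510F at 178495 to 178854 they were 21.4, 0 and 19.6 CPM in the 6 d forewing and 23.3, 0.244 and 28.3 CPM in the 72 h hindwing. An interval could thus be open in a pair of libraries and without reads, or nearly so, in the third, in the same order in both wings.

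The same held for absence in general. Of 58 members without a read in exactly 1 of the 6 d forewing libraries, the same-numbered hindwing 72 h library had no read in 43, at most 8 reads in any of the others, and was the lowest of its group in 56. In the lower of the other 72 h libraries the median level at these members was 4.68 CPM. One of the widest members, 3061 bp on contig 000003F at 4666083 to 4669143, had reads in every 6 d library but at uneven levels. It had 55.2, 34.3 and 179 CPM in the 6 d forewing and 65.6, 41.8 and 191 CPM in the 72 h hindwing, where replicate 3 was the highest in both. The other forewing libraries had 8.02 to 27.0 CPM there.

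Over all 4603 members, the departure of each 6 d forewing library from its group mean on the log2(CPM + 0.5) scale correlated with that of the same-numbered hindwing 72 h library at r between 0.847 and 0.911 for the 3 pairs. Between different numbers r was -0.684 to -0.127, which is negative in part because the 3 departures in a group sum to 0. With the same-numbered libraries of hindwing 6 d, r was -0.00354 to 0.0764. Among the other forewing intervals of at least 3 CPM at 6 d it was 0.584 to 0.714 with hindwing 72 h. Intervals of a library are not independent, so these values are descriptions without a p.

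Same-numbered libraries of the 2 groups were close to each other but not identical. Over all intervals with the same ends in both tables and at least 20 reads in the pair (48 to 61 intervals, nearly all of them not members), the chi-square per degree of freedom between their counts was 1.65 to 2.21, where counting noise alone gives about 1. Between libraries of different number it was 7.41 to 14.2 within the 6 d forewing and 8.99 to 13.6 within the 72 h hindwing. Only 5 of these intervals were members, and over those 5 the values overlapped, at 0.835 to 3.57 for same-numbered libraries and 3.22 to 80.3 within the 6 d forewing. The labels do not say whether same-numbered forewing and hindwing libraries came from the same animals.

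**Figure D4:**
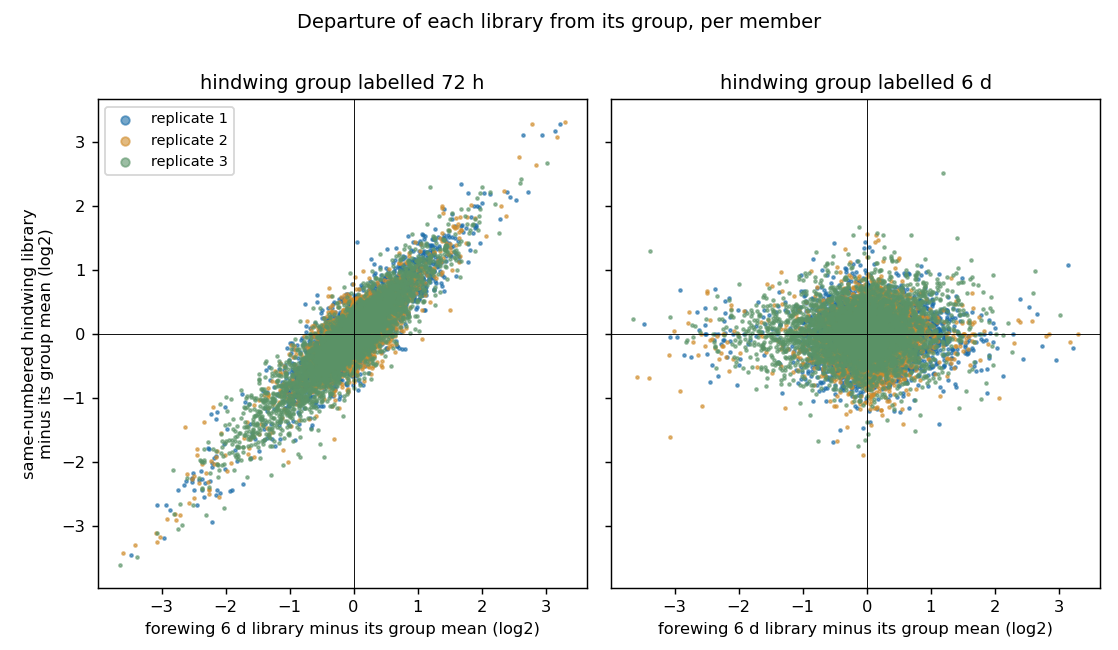
For each of the 4603 members, the log2(CPM + 0.5) of a 6 d forewing library minus its group mean (x axis) against the same quantity in the same-numbered hindwing library (y axis), for the hindwing groups labelled 72 h (left) and 6 d (right), with a colour per replicate number. The points follow a diagonal on the left (r of 0.847 to 0.911) and show no slope on the right (r of -0.00354 to 0.0764).

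A small number of members departed from the common hindwing pattern, and they were picked out after their values were seen. In 19 members the overlapping hindwing interval was not highest at 72 h. Of these, 9 lay on contig 000025F, 5 overlapped more than 1 hindwing interval and 5 were single intervals elsewhere. Some were near ties. The hindwing interval of 000062F at 940315 to 940618 had 2.874 CPM at 72 h and 2.875 CPM at 6 d. That of 000025F at 984903 to 985480 had 13.27 CPM at 72 h and 13.32 CPM at 6 d. For the 5 with several hindwing intervals, the sum over those intervals was highest at 72 h, and over all members such sums were highest at 72 h in 4587.

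The member on contig 000134F at 211302 to 212284 is one of those 5 and the only member called higher at hindwing 6 d than at 72 h. Its best match, 210961 to 211894, had 18.5, 13.1 and 11.1 CPM at 6 d against 4.32, 3.91 and 3.89 CPM at 72 h, a log2 change of 1.20 ± 0.35 (SE; adjusted p = 0.0125). This call was lost without 72 h replicate 2 or without 6 d replicate 1. The hindwing interval beside it, 211906 to 212383, also overlapped the member and had 5.29 ± 2.34 CPM at 6 d against 53.7 ± 7.80 CPM at 72 h (SD, n = 3 each), close to the 55.9 ± 5.19 CPM of the member in the 6 d forewing. On contig 000114F the member at 1397739 to 1399167 overlapped 1397733 to 1398221, with 8.28 ± 2.44 CPM at 6 d against 94.7 ± 5.85 CPM at 72 h, and 1398365 to 1399167, with 11.1 ± 2.05 CPM at 6 d against 5.49 ± 0.329 CPM at 72 h. The second of these did not pass the test (log2 change 0.40, SE 0.28, adjusted p = 0.276), while the first was lower at 6 d (log2 change -4.13, SE 0.36, adjusted p = 1.43e-07). The forewing table counted each such pair of hindwing intervals as 1 interval.

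The other single exceptions were on contigs 000012F, 000028F, 000033F, 000062F and 000362F. On 000033F at 2372773 to 2373039 the hindwing had 4.55 ± 0.759 CPM at the 5th instar, 2.46 ± 0.386 CPM in the prepupa, 4.49 ± 1.85 CPM at 72 h and 1.63 ± 0.765 CPM at 6 d (SD, n = 3 each), so that the 5th instar and 72 h did not differ beyond their spread (adjusted p = 0.764, edgeR).

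The exceptions on contig 000025F were neighbours. All 9 lay between 947510 and 1045888, within a stretch of 16 members from 913175 to 1063930, and the 16 members elsewhere on that contig were all highest at hindwing 72 h. Of the 16 in the stretch, 4 were called lower and 6 higher at hindwing 72 h than at the 5th instar, where 5.0% and 8.69% of all tested intervals were. The 4 lower ones are all the members called lower in that comparison, and 2 of them remained with a reciprocal overlap of at least 50%. Against 72 h, 5 were called lower and 0 higher at 6 d, where 20.9% and 14.0% of all tested intervals were. Against the 5th instar, 6 were called lower and 1 higher at 6 d, where 14.5% and 7.74% of all tested intervals were. Against the prepupa, 8 were called higher and 0 lower at 72 h, where 12.9% and 7.78% of all tested intervals were. At 6 d 0 were called higher and 0 lower than in the prepupa, where 1.86% and 6.59% of all tested intervals were.

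An example was the member at 947510 to 947881. In the forewing it had 17.6, 24.6 and 17.2 CPM at 6 d, against 2.33, 2.09 and 2.46 CPM at the 5th instar, 3.50, 3.43 and 2.76 CPM in the prepupa and 1.499, 1.25 and 1.93 CPM at 72 h. Its hindwing interval, 947460 to 949340, had 74.5, 126 and 112 CPM at the 5th instar, 34.0, 53.7 and 31.6 CPM in the prepupa, 18.6, 26.6 and 22.96 CPM at 72 h and 23.4, 25.5 and 16.9 CPM at 6 d. The hindwing was thus most open in the larva and had reads at every label, while the forewing was open at 6 d and low before. The hindwing fell at 72 h relative to the 5th instar by 2.01 on the log2 scale (SE 0.37, adjusted p = 6.28e-04). The hindwing interval is wider than the member, and the part of its extra length in these values was not tested.

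Several neighbours were of the same kind. The member at 973924 to 974291 had 7.77 ± 1.73 CPM at 6 d against 1.11 ± 0.314 CPM at the 5th instar in the forewing (SD, n = 3 each). In the hindwing it had 19.9 ± 2.83 CPM at the 5th instar, 8.87 ± 0.952 CPM in the prepupa, 6.45 ± 0.344 CPM at 72 h and 7.44 ± 0.527 CPM at 6 d. This member too is narrower than its hindwing interval and covers 46.8% of it. The one at 975305 to 975639 had 3.10 ± 1.89 CPM at 72 h against 15.4 ± 0.980 CPM at the 5th instar in the hindwing, a log2 change of -2.11 (SE 0.38, adjusted p = 4.63e-04). The widest, at 1044654 to 1045888, had 13.6 CPM at the 5th instar, 18.7 CPM in the prepupa, 9.61 CPM at 72 h and 64.1 CPM at 6 d in the forewing. In the hindwing it had 171 ± 37.2 CPM at the 5th instar, 98.5 ± 33.7 CPM in the prepupa, 82.7 ± 6.62 CPM at 72 h and 80.4 ± 13.3 CPM at 6 d. There the difference of 72 h and the 5th instar did not pass the test (adjusted p = 0.139). Other members of the stretch followed the common pattern, such as the first, at 913175 to 913618, with 2.10 CPM at the 5th instar, 2.02 CPM in the prepupa, 9.59 CPM at 72 h and 3.11 CPM at 6 d in the hindwing.

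The whole stretch, members and other intervals together, differed between the wings in the larva. Summed over its 262 forewing intervals, the CPM was 673 to 809 at the 5th instar, 531 to 627 in the prepupa, 366 to 386 at 72 h and 1059 to 1136 at 6 d. Summed over its 223 hindwing intervals it was 1508 to 1868 at the 5th instar, 984 to 1226 in the prepupa, 839.8 to 1055 at 72 h and 1074 to 1149 at 6 d. Forewing libraries were below all hindwing libraries of the same label at the 5th instar, in the prepupa and at 72 h, and overlapped them at 6 d. The tables divide the stretch differently, so that the sums rest on different covered lengths.

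**Figure D5:**
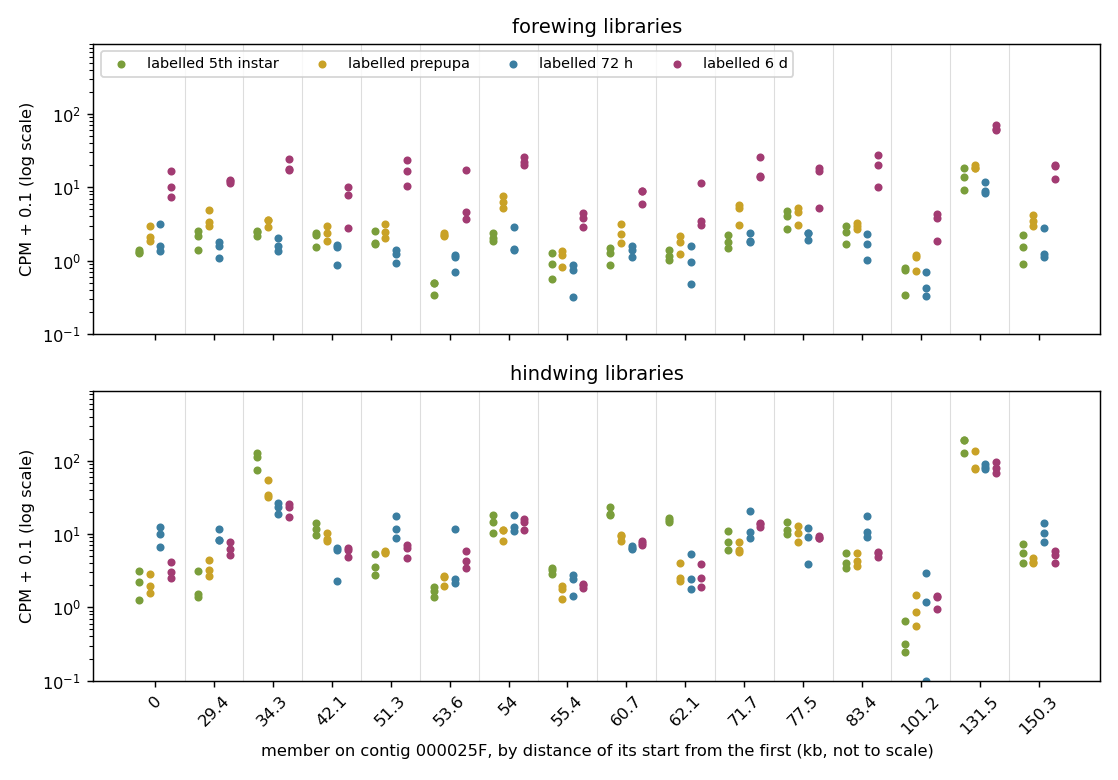
CPM plus 0.1 (log scale) of the 16 members in the stretch on contig 000025F, in order of position and labelled by the distance of their starts from the first (kb, not to scale), for forewing (upper) and hindwing (lower) libraries, with 1 point per library and a colour per labelled stage. In the forewing the 6 d group has the highest mean at each member, with 1 of its libraries below a prepupal one at the members 42.1 and 77.5 kb from the first, while in the hindwing the group labelled 72 h does not have the highest mean at 9 members between 34.3 and 131.5 kb.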

How the data were processed

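ATAC-seq was measured in 24 libraries of 8 groups, grouped by labelled tissue and stage and numbered as in their titles. The values are counts of reads per interval, not normalized, deposited by the authors in 1 table per wing. Bowtie2 and deepTools are named in the submitters' processing notes, without versions. The sources used here do not name the build, peak caller, filters, pooling or transposase shift. Any duplicates still counted would make the values less precise than their counts imply. Whether replicates are separate animals is not in the labels, and p-values thus measure the spread between these libraries, which may be technical.

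Starts counted from 0 were converted to positions counted from 1. CPM values use library totals without TMM factors. The members, lists and tests were chosen with earlier results of these data known. The rule for named intervals took the 5 members with the highest 6 d level, the 5 with the largest ratio at 10 CPM or more, the 3 widest, those nearest each limit, the fullest windows of 100 kb and contigs, and called hindwing changes of at least 5 CPM without overlap of libraries, 3 in each direction for 6 d against 72 h and 1 in each direction for the other contrasts of 6 d.

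The 12 hindwing libraries were fitted together with edgeR 4.0.16 in R 4.3.3 (limma 3.58.1), with TMM factors, filterByExpr (minimum count 10, minimum total 15) and the quasi-likelihood F test, which was tested on simulated data. All adjusted p-values are from this fit. The SE given with a log2 change was derived from it, as the size of the change divided by the square root of the F statistic. DESeq2 1.42.0 was an alternative. Tables were handled with pandas 2.3.3 and numpy 2.4.6. Same-numbered hindwing libraries of different groups did not deviate together, so replicate numbers were not used as pairs. Other filters, scalings, match rules and fits without single libraries were tried as well.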

Additional observations from a re-analysis of the deposited data

Results flagged for a closer look

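The share of counts in member intervals changed in opposite directions in the wings under the same pair of labels. For 6 d minus 72 h it was 7.27 percentage points in the forewing and -6.95 in the hindwing, with every library of the later group on one side of every library of the earlier group. For 72 h minus prepupa it was -0.168 in the forewing and 7.04 in the hindwing, and for 72 h minus 5th instar -0.0881 in the forewing and 6.96 in the hindwing. The difference between the wings was not tested, and the forewing value of 6 d is fixed by the choice of members. The small forewing differences between 72 h and the earlier labels lie within shares that the rule also limited.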

How the results depend on the processing

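The calls of hindwing 72 h against each other group kept their prevailing direction under every alternative run. Fits that left out 1 hindwing library gave 4454 to 4560 member intervals lower and 0 to 1 higher at 6 d than at 72 h, 4339 to 4501 higher and 0 to 1 lower at 72 h than in the prepupa, and 4187 to 4457 higher and 3 to 5 lower at 72 h than at the 5th instar. All tested intervals of these fits gave 48578 to 62206 lower and 26137 to 40950 higher at 6 d than at 72 h. At 72 h 22966 to 38658 of them were higher and 11065 to 21066 lower than in the prepupa. Against the 5th instar 16636 to 25867 were higher and 8692 to 15195 lower at 72 h. For 6 d the same fits gave 26 to 103 member intervals higher and 125 to 294 lower than the prepupa, and 79 to 203 higher and 505 to 895 lower than the 5th instar. Over all intervals tested in these fits, 283164 to 292176 per fit, 1546 to 5532 were higher and 10085 to 20960 lower than the prepupa. Against the 5th instar 11177 to 23916 were higher and 31315 to 45114 lower. With at least 50 counts in 3 libraries, which left 2980 member intervals, 2958 were lower and 3 higher at 6 d than at 72 h, 2944 higher and 1 lower at 72 h than in the prepupa, 184 higher at 6 d than in the prepupa, and 405 higher and 481 lower at 6 d than at the 5th instar. Over all 55082 intervals under that filter, 18877 were lower and 15555 higher at 6 d than at 72 h. At 72 h 15454 were higher and 16547 lower than in the prepupa. At 6 d 3722 were higher than in the prepupa, and 13938 higher and 15341 lower than at the 5th instar. Without TMM factors, 3 were higher at 6 d than at 72 h, 3 lower at 72 h than in the prepupa, 177 higher at 6 d than in the prepupa, and 537 higher and 489 lower at 6 d than at the 5th instar. Over all 258640 intervals that scaling gave 79759 higher at 6 d than at 72 h and 57860 lower at 72 h than in the prepupa. It gave 7079 higher at 6 d than in the prepupa, and 46012 higher and 27622 lower at 6 d than at the 5th instar. The count higher at 6 d than in the prepupa was 59 without a filter and 160 with DESeq2. Over all tested intervals it was 5589 of 488675 without a filter and 6465 of 258640 with DESeq2. With a reciprocal overlap of at least 50%, 2 were lower at 72 h than at the 5th instar. The number of intervals tested also differed between some of these settings, and the cause of the shifts was not tested.

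The number of members was 7719 with TMM factors, 10008 at 2-fold, 1383 at 5-fold, 2665 from 10 CPM and 1275 when the lowest 6 d library had to reach both 3 CPM and 3 times the highest of the other 9, and 4506 to 4961 without 1 forewing library. With the replicate number as a block, 4505 were lower and 1 higher at 6 d than at 72 h, 4444 higher and 0 lower at 72 h than in the prepupa, 4343 higher and 3 lower at 72 h than at the 5th instar, and 85 higher and 238 lower at 6 d than in the prepupa, and 164 higher and 732 lower at 6 d than at the 5th instar. With that block, 3978 of all 258640 tested intervals were higher and 15546 lower at 6 d than in the prepupa. Against the 5th instar 18264 were higher and 36352 lower at 6 d. Against 72 h 34051 of all tested intervals were higher and 52584 lower at 6 d. At 72 h 32154 were higher and 17688 lower than in the prepupa, and 21289 higher and 11862 lower than at the 5th instar. Same-numbered libraries of different hindwing groups had deviations correlated at -0.0672 to 0.102 (18 pairs), so the numbers do not pair them. Leaving out the 3 prepupal hindwing libraries, chosen after seeing the data, gave 4484 lower at 6 d than at 72 h. Over all 222640 intervals tested then, 50818 were lower.

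Depth limits the weakest members, whose values rest on few reads, and 42 member intervals did not pass the count filter and were not tested. Intervals cut differently in the tables can hold different sequence.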
